A study of Mus musculus with 6 samples.

Results

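The Hox genes described here are the 33 genes of the authors' deposited differential expression table, out of 15095 genes in all, whose symbol is Hox followed by a cluster letter (a, b, c or d) and a paralog number. Membership was set by name alone, while the family itself was chosen with earlier results of these data known. The table lists 10 genes of HoxA, 10 of HoxB, 7 of HoxC and 6 of HoxD. GENCODE places 39 protein-coding Hox genes on the mouse genome, and the other 6 (Hoxa11, Hoxc11, Hoxc12, Hoxd4, Hoxd11 and Hoxd12) were not among the genes analysed here.

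The experiment measured polyA RNA in wild-type and Setd2-KO cells, with 3 libraries each, where SETD2 is the methyltransferase that places H3K36me3 over the bodies of transcribed genes. The cells were neural progenitor cells (NPCs) derived from mouse embryonic stem cells of the line HA36CB1 (the labels give the cell type as "ebryonic stem cells", the spelling being theirs), grown as aggregates for 4 days without and for another 4 days with 5 uM retinoic acid, and collected at day 8. Both genotypes went through the same retinoic acid treatment, so that no untreated cells enter the comparison. The paper tested its knockout in more than 1 clone, but the sources used here do not say which clone gave these libraries, and a property of 1 line cannot be told apart from the genotype.

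Hox genes encode homeodomain transcription factors that give cells along the body axis their position. Each of the clusters arose by duplication of 1 ancestral cluster, so that genes with the same number in different clusters are paralogs and more alike than neighbours within a cluster. Low numbers lie at the 3′ end of a cluster, are switched on first and reach forward into the hindbrain, whereas high numbers lie at the 5′ end, follow later and mark the trunk, the lumbosacral region and the tail. Retinoic acid switches on the 3′ genes of stem cells through its nuclear receptors, and Polycomb complexes keep the 5′ genes silent until later.

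For each gene the deposited table gives the log2 fold change, the average log2 CPM (read counts scaled to library size, averaged over all 6 libraries), the p-value and the FDR (false discovery rate). Fold changes are written here as Setd2-KO over wild type, with the deposited sign turned. The authors' edgeR test, glmTreat, was set against a log2 fold change of 1 in either direction, and a gene was called at an FDR under 0.05. A Hox gene that was not called is therefore not shown to be unchanged, and values between -1 and 1 are descriptions. Values per library were not analysed here, so no SD, no interval and no overlap of the groups can be given for a Hox gene, and the depth of each library is unknown. Nothing in the sources says that replicate libraries were separate differentiations, and p-values measure only how much these libraries vary, which may be technical variation. Setd2 itself had a log2 fold change of -0.44 with an FDR of 1 by the authors' edgeR test. A frameshift can leave the RNA in place, so this value does not check the genotype.

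The label of the cells was checked against markers. Of 11 neural progenitor markers, 10 were listed, among them Sox3 with an average log2 CPM of 8.39, Pax6 with 8.24 and Nes with 7.78, while Sox1 was not listed. The lowest of the 10 were Fabp7 with 3.56 and Zic1 with 4.75. The median over the 10 was 7.68, beside 4.57 for all genes. Neuron markers were also present, with an average log2 CPM of 9.75 for Tubb3. Medians were 3.29 for intermediate and lateral plate mesoderm markers, of which Wt1 had 6.39, and 3.67 for endoderm markers. All of these are averages over both genotypes, so neither genotype is checked alone.

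**Figure D1:**
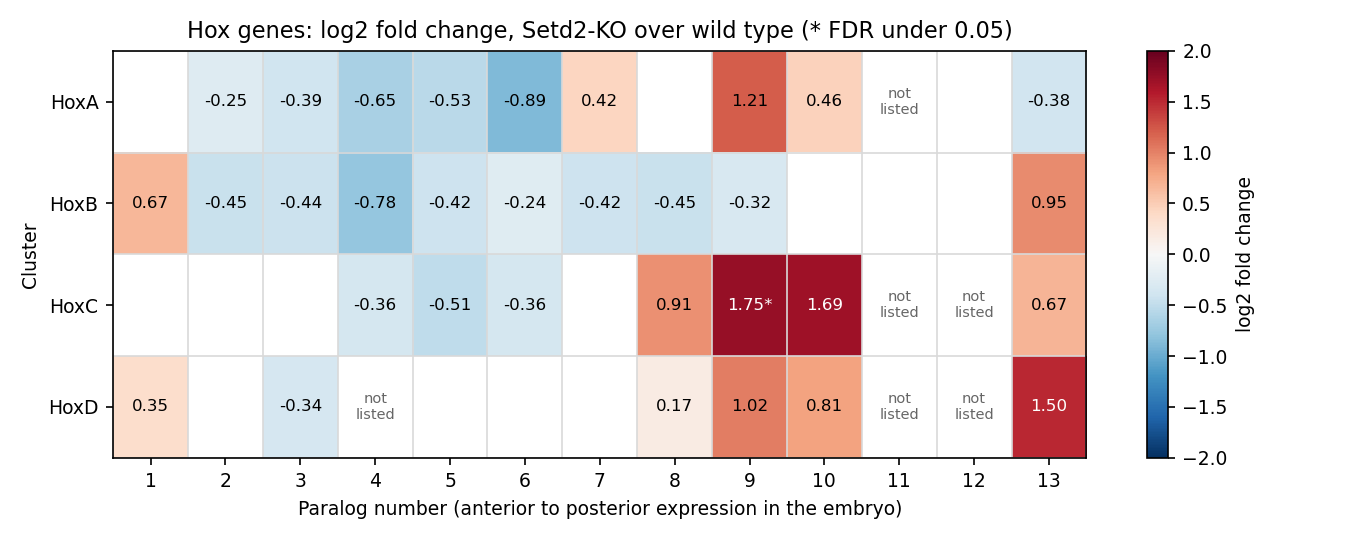
Map of the Hox genes with the 4 clusters as rows and the paralog numbers 1 to 13 as columns. Each tile gives the log2 fold change of Setd2-KO over wild type, blank tiles hold no gene or no value shown here, and "not listed" marks genes outside the table. Paralogs 2 to 6 are all below 0, whereas 9 of the 11 listed genes of paralogs 9 to 13 are above 0, and only Hoxc9 carries the mark of a call.

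Hoxc9 was the only Hox gene called. It is a gene of thoracic identity that restricts the limb-level motor columns, and it had a log2 fold change of 1.75 (3.35-fold higher in Setd2-KO) with an FDR of 6.29e-08 by edgeR's glmTreat. Its average log2 CPM was 3.61, and its log2 fold change ranked 128th of 15095 genes from the top. No Hox gene was called lower. Of all genes tested, 1.54% were called higher and 2.11% were called lower, against 1 and 0 of the 33 Hox genes, so that the share of calls among them is near that of all genes. At an unadjusted p under 0.05 the same test gave 4 Hox genes as higher (Hoxa9, Hoxc9, Hoxc10 and Hoxd13) and 0 as lower, beside 2.54% and 3.43% of all genes.

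The log2 fold changes of the Hox genes were described over all members, by paralog number and by cluster. Over all 33 the median was -0.25 and 15 of 33 (45.5%) were above 0, beside a median of 0.01 and 50.8% above 0 for all genes. By the 3 ranges of paralog number, the median was -0.36 for paralogs 1 to 4, -0.42 for paralogs 5 to 8 and 0.95 for paralogs 9 to 13, with 11 genes in each. Across the 33 genes the log2 fold change and the paralog number had a Spearman correlation of 0.51, given as a description, since neighbouring genes of a cluster share regulation and the same libraries and are not independent. Within single clusters this correlation was 0.30 for HoxA, 0.32 for HoxB, 0.71 for HoxC and 0.77 for HoxD. By cluster, the median was -0.32 for HoxA, -0.42 for HoxB, 0.67 for HoxC and 0.58 for HoxD. HoxC and HoxD have fewer listed genes with low numbers than HoxA and HoxB, so cluster and paralog number cannot be told apart in these medians.

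Hoxb1 and Hoxd1, at the 3′ end of their clusters, had values above 0. Such genes are among the first to respond to retinoic acid. Hoxb1, which marks the fourth hindbrain segment, had a log2 fold change of 0.67, and Hoxd1 had 0.35. Neither was called. Between Hoxb1 and Hoxb2, which are 11.7 kb apart, the log2 fold change went from 0.67 to -0.45.

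Paralogs 2 to 6 were below 0 in every cluster, 14 of 14 genes, with a median log2 fold change of -0.43 and a range from -0.89 to -0.24. These genes pattern the hindbrain, the branchial arches and the cervical to upper thoracic levels. The lowest value was that of Hoxa6, with -0.89 (1.85-fold lower), followed by Hoxb4 with -0.78 and Hoxa4 with -0.65. Hoxb4 is among the abundant genes of the table, with an average of 525 CPM, and its log2 fold change ranked 1172nd of 15095 genes from the bottom. Paralog 4, whose genes are expressed from the posterior hindbrain backwards, had the lowest median of any paralog number with a gene in the table, -0.65 over Hoxa4, Hoxb4 and Hoxc4 (-0.36). Paralog 5 genes, which include the activators of phrenic motor neuron identity, lay close together: Hoxa5 at -0.53, Hoxb5 at -0.42 and Hoxc5 at -0.51. Paralog 3 genes did too, with -0.39 for Hoxa3, -0.44 for Hoxb3 and -0.34 for Hoxd3. Each of these differences is smaller than the log2 fold change of 1 that the test was set against, and all 14 genes had an FDR of 1 by the authors' edgeR test.

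Paralogs 7 and 8 were divided between the clusters, with 3 of 5 above 0. Hoxa7 had a log2 fold change of 0.42 and Hoxb7 one of -0.42. Hoxc8, which specifies motor neurons of the forelimb level, had 0.91, Hoxd8 had 0.17 and Hoxb8 had -0.45. The place where the sign turned was read for each cluster. In HoxA it turned between Hoxa6 and Hoxa7, which are 5.77 kb apart and differ by 1.31 on the log2 scale. In HoxC it turned between Hoxc6 and Hoxc8, which are 4.14 kb apart and differ by 1.27. In HoxD it turned between Hoxd3 and Hoxd8, which are 3.97 kb apart and differ by 0.51. The unlisted Hoxd4 lies within the span of Hoxd3 and shares exon bases with it. Hoxd3 and Hoxd8 are thus neighbours only among the listed genes. In HoxB every gene from Hoxb2 to Hoxb9 was below 0, and the next gene, Hoxb13, lies 73.9 kb away and was above 0. These differences between genes were not tested.

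Paralogs 9 to 13 were above 0 in 9 of 11 genes. Paralog 9 held the called gene: beside Hoxc9 (1.75), Hoxa9 had a log2 fold change of 1.21 (FDR 0.223), Hoxd9 one of 1.02 (FDR of 1) and Hoxb9 one of -0.32, where the FDR is that of the authors' edgeR test. Hoxb9, the exception, had an average log2 CPM of 9.68. Hoxa9, a regulator of blood stem cells as well as of the trunk, had an average of 3.08 CPM and an unadjusted p of 0.0101 by the same test. Paralog 10 genes, which give the lumbar level and the hindlimb motor columns their identity, were all above 0: Hoxc10 at 1.69 (FDR 0.0972 by edgeR), Hoxd10 at 0.81 and Hoxa10 at 0.46. Of the paralog 13 genes, which end the body axis and shape the limb tip and the hindgut, Hoxd13 had 1.50 (FDR 0.405 by edgeR), Hoxb13 had 0.95, Hoxc13 had 0.67 and Hoxa13 had -0.38. No gene of paralogs 11 and 12 was listed.

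The 3′ and 5′ genes also stood far apart in level, and this bears on how firmly the values above can be read. Hoxc10, Hoxc13, Hoxa10, Hoxd13, Hoxa13 and Hoxd10 had averages from 0.239 to 0.748 CPM over the 6 libraries, that is, an average log2 CPM under 0. Fold changes at such levels rest on few reads: among all genes the SD of the log2 fold change was 0.87 for those with an average log2 CPM under 0 and 0.37 for those from 6 to 8. Among the 5 genes of paralogs 9 to 13 whose average log2 CPM is not below 0, the median log2 fold change was 1.02, with Hoxb9 below 0 and the other 4 above.

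**Figure D2:**
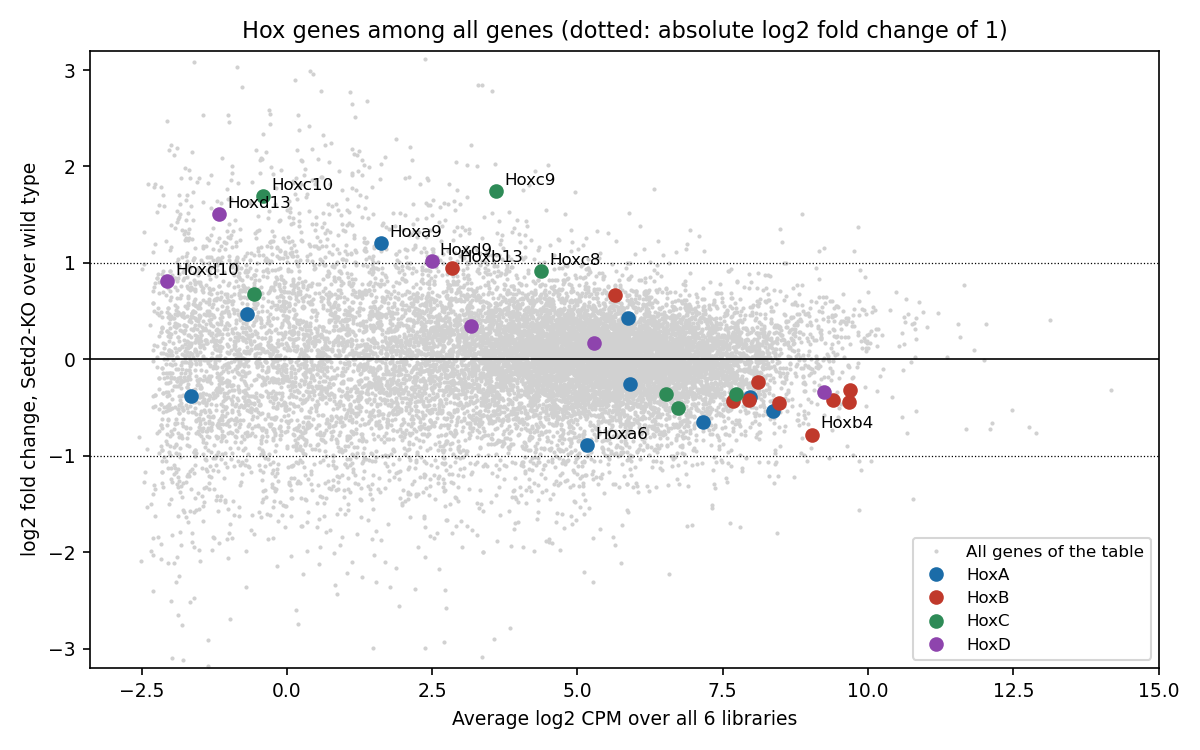
Log2 fold change against the average log2 CPM, with all genes of the table in grey and Hox genes in the colour of their cluster; 12 genes lie outside the vertical range. The 15 Hox genes plotted at an average log2 CPM over 6 are below 0, and of the 11 with an average of up to 4, 10 are above 0.

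Sorted by level, the Hox genes also divided into genes below and above 0. Of the 16 Hox genes with an average log2 CPM over 6, 15 were below 0, whereas 51.2% of the 3903 genes of the table at these levels were below 0. Of the 11 Hox genes with an average log2 CPM of up to 4, 10 were above 0, beside 52.2% of 6389 genes at these levels. All 8 Hox genes with an average over 8 (Hoxa5, Hoxb2, Hoxb4, Hoxb6, Hoxb7, Hoxb8, Hoxb9 and Hoxd3) were below 0, in a range where 58.0% of all genes were above it. The Spearman correlation between average log2 CPM and log2 fold change over the 33 Hox genes was -0.69, again a description. The limits of 4, 6 and 8 were set with the values known. Paralog number and level, as log2 CPM per kb of exon, had a Spearman correlation of -0.55 over the 33 Hox genes and of -0.20 over the 27 whose average log2 CPM was 0 or more. Over these 27, average log2 CPM and log2 fold change had one of -0.66.

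Levels were compared between genes per kb of exon, since the Hox genes differ in length. On this scale, log2 CPM per kb, the median was 5.10 for the Hox genes and 1.89 for all genes. HoxB was the most abundant cluster with a median of 6.78, followed by HoxA with 4.86, HoxC with 2.78 and HoxD with 1.81. The highest levels were those of Hoxb7 (8.78), Hoxb8 (8.26) and Hoxb9 (8.25), then Hoxb4 (7.68) and Hoxa5 (7.46). Between Hoxb8 and Hoxb9 the order cannot be set, since no spread between libraries is at hand. Levels were lowest at the 5′ end of each cluster. In HoxC it went from 6.37 for Hoxc4 through 2.78 for Hoxc8 and 2.13 for Hoxc9 to -1.45 for Hoxc10. In HoxA it went from 4.34 for Hoxa7 to -0.86 for Hoxa9 and -2.40 for Hoxa10, and in HoxD from 3.73 for Hoxd8 through 1.35 for Hoxd9 to -2.96 for Hoxd10. In HoxB the level stayed high as far as Hoxb9 and reached 1.67 at Hoxb13. The gene that was called, Hoxc9, thus sits on the slope between the abundant and the nearly silent part of its cluster, as do Hoxc8, Hoxa9 and Hoxd9 of theirs.

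**Figure D3:**
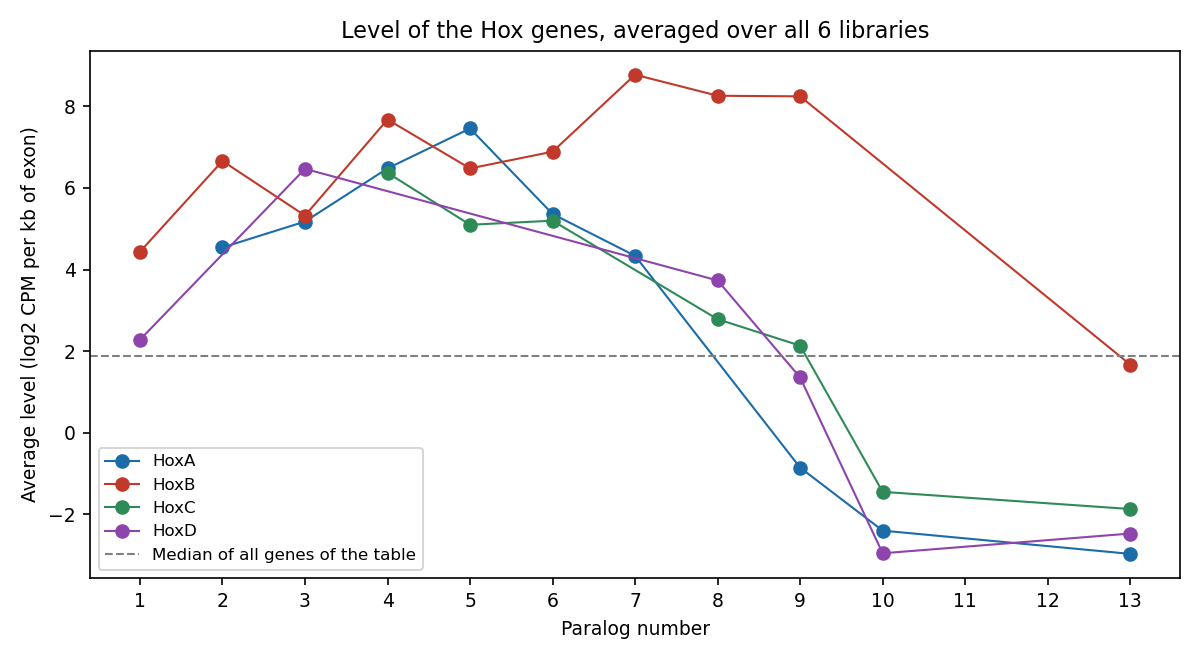
Average level of the Hox genes over all 6 libraries in log2 CPM per kb of merged exons, by paralog number, with 1 line for each cluster; the dashed line is the median of all genes (1.89). HoxA, HoxC and HoxD drop below this line from paralog 9 or 10 on, whereas HoxB stays at 8.25 at paralog 9.

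Hox genes are compact, with a median span of 3488 bases against 25780.5 bases for all genes of the table, and the canonical transcript of 29 of the 33 has 2 exons. Their compactness brings them close to each other and to noncoding transcripts. The exons of 7 Hox genes share bases with another annotated gene on the same strand, the largest share being 38.2% for Hoxd3 (with Hoxd4 and Gm28230), followed by 10.4% for Hoxa2 and 8.11% for Hoxc10. Hoxc10 shares these bases with Hoxc5, for which they are 5.37% of the exon bases, and the values of both are uncertain to this extent. The exons of 16 Hox genes share bases with a gene on the opposite strand, Hoxb3 most of all with 51.5% (Hoxb3os). Of the exon bases of Hoxc9, 13.3% lie opposite Gm36878 and none are shared on its own strand. The library kit keeps the strand, but the sources used here do not say whether the counting used it.

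**Figure D4:**
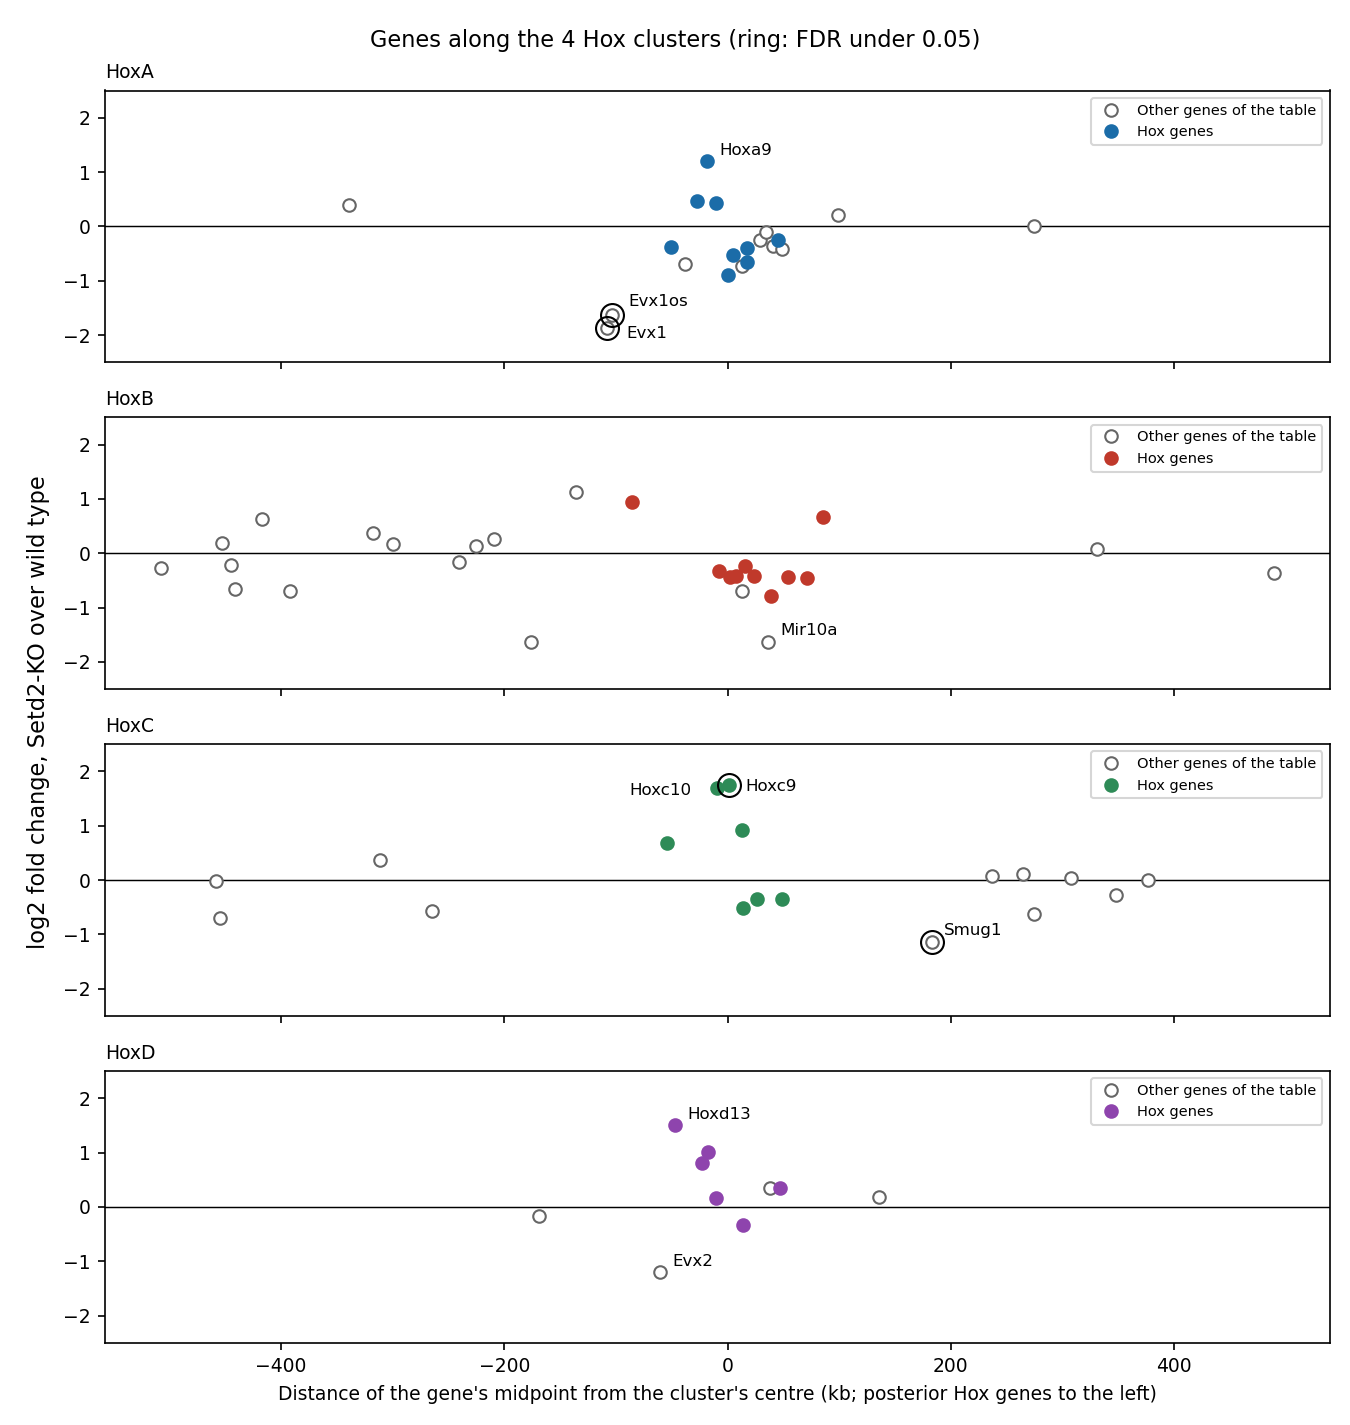
Log2 fold change of genes of the table that reach within 400 kb of a Hox cluster, against the distance of their midpoint from the centre of the cluster in kb, with the 5′ (posterior) end of each cluster to the left; rings mark an FDR under 0.05. Hoxc9 is the only ringed Hox gene, and Evx1 and Evx1os at the posterior side of HoxA and Smug1 at the anterior side of HoxC are the ringed neighbours.

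On GRCm39 the clusters lie on chromosome 6 from 52132570 to 52237822 (HoxA), on chromosome 11 from 96085106 to 96259082 (HoxB), on chromosome 15 from 102829538 to 102945278 (HoxC) and on chromosome 2 from 74498654 to 74595486 (HoxD). The table lists 9 other genes within them. The noncoding RNAs of the 3′ part of HoxA had values below 0 like the Hox genes beside them: Hotairm1, which overlaps Hoxa2 on the opposite strand, had a log2 fold change of -0.41, Hoxaas2 had -0.35 and Hoxaas3 had -0.73. In HoxB, Hoxb5os had -0.69. Hoxa11os, opposite the unlisted Hoxa11, had -0.68 at an average log2 CPM of -1.19. Gm14424 of HoxD had 0.35, Gm15050 had -0.11 and 5730596B20Rik had -0.26. None of these genes was called.

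The ninth is Mir10a, which lies between Hoxb4 and Hoxb5 on chromosome 11 from 96207991 to 96208100. It had the lowest log2 fold change within any of the clusters, -1.62, with an FDR of 0.36 by edgeR's glmTreat and an average log2 CPM of -1.88. A row for a microRNA in a polyA library counts reads of the primary transcript over the hairpin, not the mature microRNA, and these reads may not be separated from those of longer transcripts that cross it. Its counterpart at the same place in HoxD, Mir10b, was not listed. The mature sequences from RefSeq are shown because both carry the same seed (bases 2 to 8, in capitals), and they differ by U12A, counted from the 5′ end with the base of miR-10a first.
miR-10a-5p: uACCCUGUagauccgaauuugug
miR-10b-5p: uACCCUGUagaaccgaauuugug

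The genes next to the clusters are the even-skipped homologues Evx1 (beyond Hoxa13) and Evx2 (beyond Hoxd13), homeobox genes of the posterior axis and of spinal V0 interneurons. Evx1 fell, with a log2 fold change of -1.86 and an FDR of 4.63e-06 by edgeR's glmTreat, at 52.7 kb from the end of HoxA. Its antisense partner Evx1os had -1.63 with an FDR of 0.0119 by the same test, and reads of the overlapping pair may not be separated. Evx2, 8.75 kb from HoxD, had -1.19 at an average log2 CPM of -1.95 and was not called. Both Evx genes thus had values below 0, as Hoxa13 next to Evx1 did, whereas Hoxd13 next to Evx2 had one above 0.

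Outside the clusters, 99 other genes lie within 1 Mb, and 4 of them (4.04%) were called, all of them lower, where 2.11% of all genes of the table were called lower and 1.54% higher. Within 5 Mb, 13 of 426 genes (3.05%) were called, 3 of them higher. The 4 genes within 1 Mb were Evx1, Evx1os, Smug1, a uracil DNA glycosylase gene 116 kb from HoxC, with a log2 fold change of -1.13 and an FDR of 0.00645, and Ngfr, the p75 neurotrophin receptor gene 607 kb from HoxB, with -1.95 and an FDR of 6.11e-10, both by edgeR's glmTreat. The medians of the flanking genes were 0.03 beside HoxA, -0.06 beside HoxB, -0.04 beside HoxC and 0.19 beside HoxD.

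RefSeq promoters (from 250 bases before to 50 bases after the start of the gene) were at hand for 18 of the 33 Hox genes, not including Hoxc9 and Hoxc10. The median number of CpG dinucleotides in them was 17, against 20 for the promoters of 11669 genes of the table. It was 20 in the 9 with a log2 fold change below 0 and 12 in the 9 above 0, with ranges of 9 to 45 and 4 to 37 that overlap widely. The 250 bases upstream are shown for the genes with the lowest and the highest log2 fold changes, leaving out those with an average log2 CPM under 0 and those where more than 30 of these bases are annotated as untranslated exon: Hoxa5 and Hoxb4 below 0, and Hoxa9 and Hoxb1 above 0. Capitals mark CpG, of which the sequences of Hoxa5 and Hoxb4 have 28 and 14 and those of Hoxa9 and Hoxb1 have 3 and 7. All were matched to GRCm39: Hoxa5 at chr6:52181568-52181817 and Hoxa9 at chr6:52204351-52204600 on the minus strand, Hoxb4 at chr11:96208843-96209092 and Hoxb1 at chr11:96256334-96256583 on the plus strand.
Hoxa5: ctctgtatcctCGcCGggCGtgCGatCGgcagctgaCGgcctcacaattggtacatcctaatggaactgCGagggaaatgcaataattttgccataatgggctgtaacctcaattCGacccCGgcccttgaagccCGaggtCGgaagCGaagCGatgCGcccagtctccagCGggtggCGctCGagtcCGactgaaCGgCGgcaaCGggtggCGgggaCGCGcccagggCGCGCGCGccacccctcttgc
Hoxb4: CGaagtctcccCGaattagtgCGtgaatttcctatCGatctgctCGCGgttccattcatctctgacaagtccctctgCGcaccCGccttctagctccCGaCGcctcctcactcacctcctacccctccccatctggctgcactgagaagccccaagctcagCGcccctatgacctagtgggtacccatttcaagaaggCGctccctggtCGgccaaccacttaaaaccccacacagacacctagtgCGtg
Hoxa9: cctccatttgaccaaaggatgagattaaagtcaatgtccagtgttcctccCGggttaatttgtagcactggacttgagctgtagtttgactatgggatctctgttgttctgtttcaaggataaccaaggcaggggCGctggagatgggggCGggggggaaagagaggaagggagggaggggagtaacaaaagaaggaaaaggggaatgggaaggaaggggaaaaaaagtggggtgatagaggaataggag
Hoxb1: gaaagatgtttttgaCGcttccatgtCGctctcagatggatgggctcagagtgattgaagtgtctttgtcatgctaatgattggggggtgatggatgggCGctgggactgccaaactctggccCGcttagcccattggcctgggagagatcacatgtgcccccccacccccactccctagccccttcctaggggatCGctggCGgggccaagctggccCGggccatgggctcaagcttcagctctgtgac

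The letters TGATNNAT, to which Hox and Pbx proteins can bind as a pair, were found on either strand in 3 of the 18 Hox promoters (16.7%) and in 4.19% of those of all genes of the table. They are shown in capitals with 10 bases on each side, as read on the strand that carries them. In Hoxb1 they begin 162 bases before the start of the gene, in Hoxa2 111 and in Hoxb8 11 bases before it, counted to the match's first base on the gene's strand.
Hoxb1: gattggggggTGATGGATgggcgctggg
Hoxa2: actgtctgttTGATTGATccaaaaaagt
Hoxb8: aaagctttaaTGATCAATttccttatta
Hoxb1 had a log2 fold change above 0 and Hoxa2 and Hoxb8 had values below 0. Direct repeats of the retinoic acid receptor half-site AGGTCA (or of GGGTCA, or of either spelled with TT in place of GT), with 1 to 5 bases between them on either strand, were found in 0 of the 18 Hox promoters and in 0.394% of those of all genes of the table. At so low a share, 0 of 18 does not set the Hox promoters apart. The letters TTTATNG, to which Cdx proteins can bind, were found in 1 of 18 (Hoxb8) and in 6.88% of all. A match is a description of the letters and not a bound site, and the enhancers of the clusters lie mostly outside these windows.

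The partners and chromatin regulators of the Hox genes had no called member. Of all genes, 1.54% were called higher and 2.11% lower, so lists this short can hold 0 calls without differing from all genes. The same applies to the lists below with 0 calls. Of the 9 cofactor genes of the TALE class, which bind DNA together with Hox proteins, 0 were called, and their median log2 fold change was -0.07. Meis3, a cofactor of the hindbrain, had the lowest value with -0.78, and Pbx2, Meis2 and Meis1, with the highest average log2 CPM, had 0.00, -0.02 and 0.02. Of the 25 Polycomb subunits, which silence Hox clusters, 0 were called, with a range of -0.55 (Jarid2) to 0.64 (Rbbp7) and values of -0.04 for the methyltransferase gene Ezh2 and 0.25 for Suz12. The list of 16 genes of trithorax and MLL complexes, which keep Hox genes active, also holds factors linked to them, such as Dot1l. Of these 16 genes, 0 were called, with -0.26 for Kmt2a and -0.07 for Dot1l. At an unadjusted p under 0.05, 0 genes of these 3 lists passed the authors' edgeR test.

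Of 12 upstream activators of Hox genes, 10 were listed and 0 called, with 0 at an unadjusted p under 0.05 in the authors' edgeR test. The highest log2 fold changes were those of Cdx2, which activates trunk Hox genes, with 1.15, and of T (Brachyury) of the axial stem zone, with 1.08, both at average log2 CPM values of 0.07 and -0.42 that rest on few reads. Gdf11, the signal that switches on posterior Hox genes, had -0.57, and Nr6a1, a regulator of trunk length, had 0.26.

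Of the 13 listed genes that bind, take up, make or degrade retinoic acid or its precursors, 2 were called higher and 1 lower, and the median of the list was -0.01. Crabp1, a cytoplasmic retinoic acid binding protein, rose (1.35, FDR 2.52e-06), as did Stra6, the receptor that takes up retinol (1.20, FDR 0.000175), and Cyp26b1, an enzyme that degrades retinoic acid, fell (-1.15, FDR 0.00658), by edgeR's glmTreat. The retinoic acid receptors had log2 fold changes of -0.33 (Rara), -0.38 (Rarb) and 0.43 (Rarg), and Cyp26a1, itself a retinoic acid target, had 0.16.

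**Figure D5:**
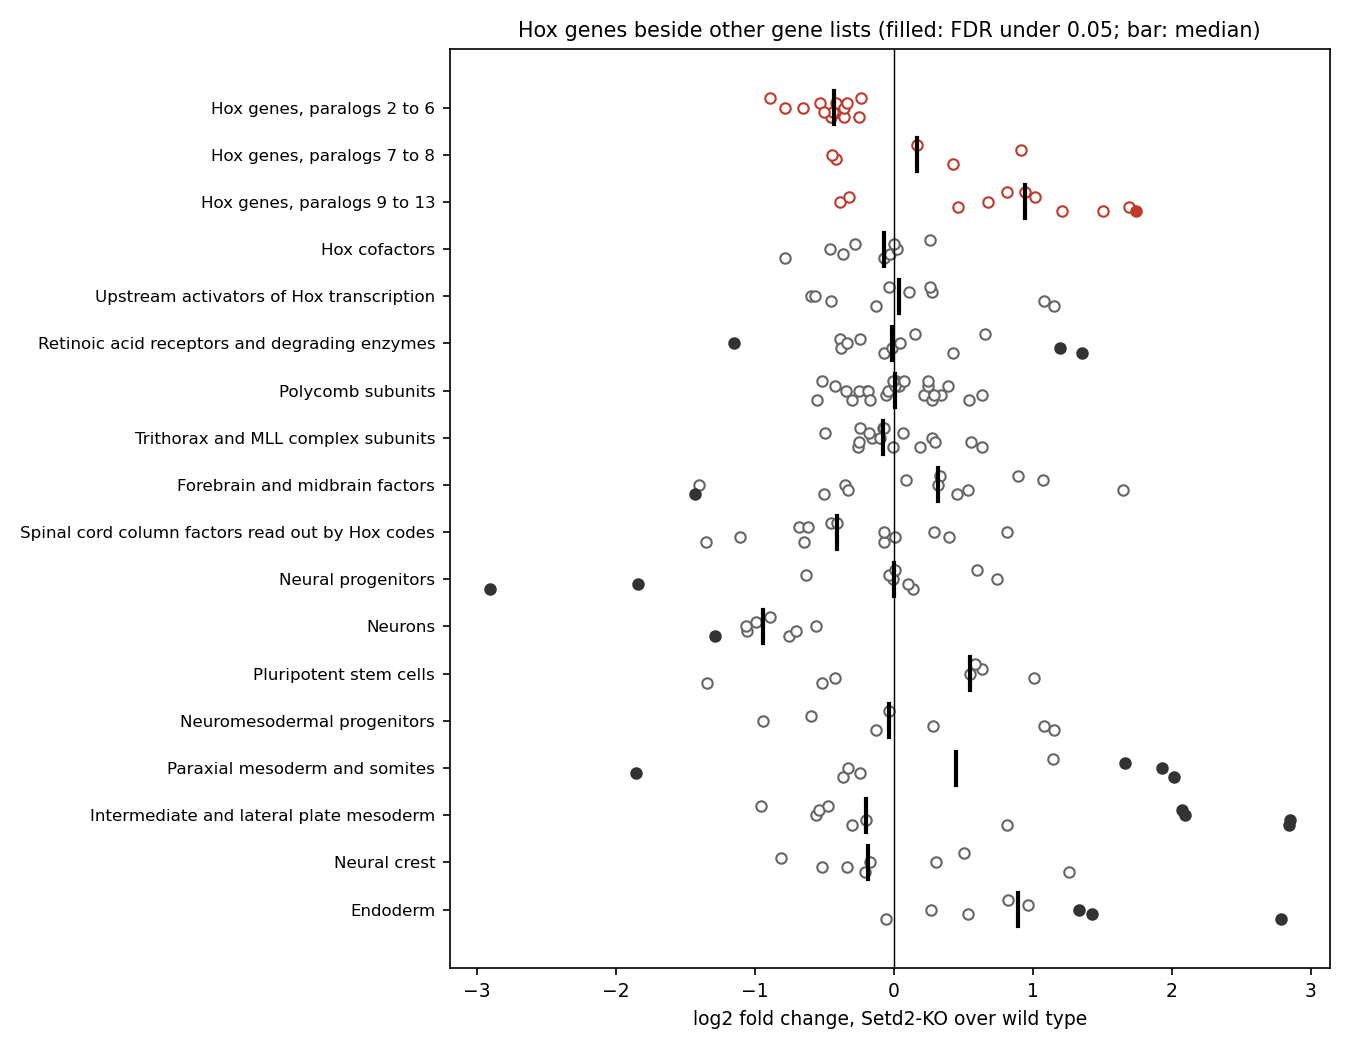
Log2 fold changes of the Hox genes of paralogs 2 to 13 (red) beside those of 7 lists of Hox partners, regulators and targets and 8 lists of cell type markers (grey); each point is a gene, filled points passed an FDR of 0.05 and bars are medians. The Hox genes of paralogs 2 to 6 have a median of -0.43 and those of paralogs 9 to 13 one of 0.95. All 8 neuron markers are below 0. The called genes of the mesoderm and endoderm lists are above 0 except Uncx, which the paper also describes as a neuronal factor.

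Genes that read out the Hox code and factors of the forebrain and midbrain were given the same test. Of 13 genes of the motor neuron columns, whose identity depends on Hox proteins, 0 were called, with a median of -0.41, and 2 passed at an unadjusted p under 0.05 in the authors' edgeR test: Isl2 (-1.35) and Pou3f1 (-1.11), of which Pou3f1 marks limb-level and phrenic motor neurons. Foxp1, the Hox cofactor of limb-level motor columns, had -0.41. Of 15 forebrain and midbrain factors, 13 were listed and Emx2 was called lower (-1.43, FDR 9.34e-05 by edgeR). Whether the RNA of these factors came from cells without Hox expression was not tested. The median of the list was 0.32, and 8 of the 13 were above 0. Rax, a factor of the eye field and hypothalamus, had 1.65 and passed at an unadjusted p under 0.05 in the same test (0.00326, FDR 0.083). Otx2, which marks the forebrain and midbrain, had an average log2 CPM of -0.01.

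Markers of other cell types moved between the genotypes as well. All 8 neuron markers were below 0, with a median log2 fold change of -0.94 and a range from -1.28 (Elavl3, called) to -0.56, the same direction as paralogs 2 to 6. Of the 11 intermediate and lateral plate mesoderm markers 4 rose (Osr1 with 2.85, Hand2 with 2.84, Foxf1 with 2.09 and Tbx5 with 2.07), and 6 of the 11 were below 0. Of the 8 listed paraxial mesoderm genes 3 rose (Foxc2 with 2.01, Pax1 with 1.93 and Pax9 with 1.66) and Uncx fell (-1.86). The paper describes Uncx as a factor of postmitotic neuron differentiation. In its single-cell data Uncx was seen mainly in wild-type cells becoming neurons, so its fall cannot be assigned to mesoderm here. Of the 8 endoderm genes 3 rose (Afp with 2.78, Apoa1 with 1.43 and Ttr with 1.33) and 7 were above 0, the same direction as 9 of the 11 Hox genes of paralogs 9 to 13. Of the listed neural progenitor markers, Fabp7 (-2.91) and Pax3 (-1.84) fell, and the median over all 10 was 0.00. No gene was called among the 7 listed neuromesodermal, the 7 listed pluripotency and the 8 neural crest markers, of which only Nanog, a pluripotency marker with -1.35, had an unadjusted p under 0.05 in the edgeR test. Mesoderm and endoderm also express Hox genes, and in bulk RNA fewer cells of a type and less RNA per cell cannot be told apart. The part of these markers' cells in the values of the Hox genes was not tested.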

How the data were processed

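PolyA RNA of 6 libraries was sequenced by the authors. For alignment and counting the sources differ: the build is mm9 (NCBIM37) in the submitters' processing notes, which list STAR, Trim Galore and edgeR, and GRCm39 with Salmon and GENCODE M35 annotation in the methods of the paper. The deposited log2 fold changes and average log2 CPM values were made by the authors with edgeR after a filter on low counts and TMM scaling, and the deposited p-values and FDR come from the authors' glmTreat test against an absolute log2 fold change of 1. These comparison columns are the only measurements used, since the table holds no values per library: depth per library is unknown, and its effect is seen only through the average log2 CPM.

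Signs were turned so that positive values mean more RNA in Setd2-KO, because 518 of 523 genes shared with the paper's lists of genes higher in either genotype then pointed the same way. Gene IDs were matched without version to GENCODE vM39 on GRCm39 (15066 of 15095 found), and promoters and microRNAs were taken from RefSeq tables of GRCm38.p6, with promoters matched by sequence to GRCm39. The Benjamini-Hochberg adjustment was recomputed and gave the deposited FDR, and the step was tested on simulated data. Levels per kb use the merged exons of a gene. Named genes were all Hox genes, Setd2, other genes of the table within a cluster, called genes within 1 Mb, and of each list the called members (up to 4) or the 3 with the highest average log2 CPM; other genes were named after their values were seen. Some genes are not reported here and were left out of the plots that show single genes, while counts and medians over the Hox genes and lists include them. The Hox genes and all lists were chosen with earlier results of these data known. Python 3.11.15 with pandas 2.3.3, numpy 2.4.6, scipy 1.17.1 and matplotlib 3.10.9 was used.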

Additional observations from a re-analysis of the deposited data

How the results depend on the processing

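Hoxc9 was called, and 0 Hox genes were called lower, under each threshold tried. An FDR under 0.1 gave 2 Hox genes as higher and an unadjusted p under 0.05 gave 4. The median log2 fold change of all Hox genes stayed between -0.35 and -0.25 and the share above 0 between 37.0% and 46.2% under filters on level, recentring on all genes and leaving out genes with shared exons. The correlation with paralog number was 0.35 once genes with an average log2 CPM under 0 were left out. It was 0.63 without HoxA and 0.39 without HoxC, and the median of paralogs 9 to 13 was 0.81 both without HoxD and without genes that share exons, alternatives chosen after seeing the data. Within 5 Mb of the clusters 13 of 426 genes were called, 3 of them higher. No paired analysis was possible because the table holds no values per library, and for the same reason no library could be left out. Changes below an absolute log2 fold change of 1, which hold for most Hox genes, cannot be called by the authors' test, and 6 of the 33 Hox genes have an average log2 CPM under 0.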
